A study of Brassica rapa with 36 samples.

Results

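The difference between an inducible and a non-inducible line of Brassica rapa in how their microspores responded to heat was measured by RNA-seq. It was taken gene by gene as the change between heated and unheated microspores in K2 minus the same change in 49CX. The contrast used 12 of the 36 libraries of the series, 3 in each of 4 groups: K2 microspores after heat shock, K2 microspores without it, 49CX microspores after heat shock and 49CX microspores without it. K2 is described as inducible to androgenesis and 49CX as non-inducible, and no transgene or mutation is named for either. Each line is a single genotype, so inducibility and every other difference between the lines cannot be told apart. All 47135 gene IDs of the files entered, and 9376 passed the low-count filter and were tested. The files do not pair the IDs with names, and 0 of them matched the RefSeq gene table of assembly CAAS_Brap_v3.01, so genes are described by direction, level and stage.

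A microspore is the young pollen cell released after meiosis, and in the anther it divides unequally and matures into pollen. In some Brassica genotypes a heat treatment of isolated microspores diverts part of them from this path, and they divide and form embryos, which is called androgenesis. Pollen maturation is known for a large set of strongly expressed late genes. A comparison of heat effects between a line that can make this switch and a line that cannot addresses which parts of the response are not shared.

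The 12 libraries held 107928 to 462704 gene counts. In CPM (counts scaled by each library's total), 3 counts came to 6.48 in the deepest library and 27.8 in the shallowest. Replicates were alike, with a Pearson r of log2 CPM of 0.784 to 0.910 between replicates of a group. The unheated K2 libraries stood apart from other microspores in a measure that does not use single genes. Reads falling in several genes amounted to 0.249% to 0.282% of gene counts there, against 0.646% to 1.16% in the other 15 microspore libraries. The 3 libraries of 49CX leaf, used for lists and levels, were as low, at 0.212% to 0.259%. The share of reads outside genes was 79.8% to 80.1% in unheated K2 and 60.1% to 71.7% in the other 9 libraries of the contrast. Late microspores spanned 69.6% to 83.5%, so on this measure unheated K2 lay within the range of microspores. The part of these measures in the results was not tested. With late unicellular microspores as the baseline of each line, which leaves the unheated libraries out of the contrast, 2070 genes differed, of which K2 had the higher effect for 929 and the lower for 1141. Of the 2357 genes called with unheated microspores as baseline, 1138 were called in the same direction there and 21 in the opposite direction. Called or not, 224 of the 2357 had the opposite sign there. Both contrasts use the same 6 heated libraries, which by itself favours the same direction. That baseline was chosen after the data were seen, and it takes in every change between the late stage and the heated microspores, not heat alone.

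Heat acted differently in the lines on 2357 of 9376 genes, which is 25.1% of those tested (edgeR's quasi-likelihood test of the interaction, Benjamini-Hochberg adjusted p under 0.05). K2 had the lower heat effect for 1521 of them (16.2% of all tested) and the higher for 836 (8.92%). Most genes with a lower effect fell with heat in K2 and were not called for heat in 49CX. Their median difference was -3.13 on the log2 scale, with a median heat effect of -3.13 in K2 and -0.21 in 49CX. Genes with a higher effect had a median difference of 2.29, with a median heat effect of 2.07 in K2 and -0.22 in 49CX. Over all genes tested the medians were -0.08 for the difference, 0.01 for K2 and -0.01 for 49CX. The median standard error of a called difference was 0.64 for lower and 0.65 for higher effects.

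The size of the differences was as follows. Among genes with a lower effect 1489 differed by at least 2-fold, 1149 by at least 4-fold and 560 by at least 16-fold. Among those with a higher effect the counts were 815, 511 and 134. Every one of the 9 ratios between a heated and an unheated K2 library lay below all 9 such ratios in 49CX for 1212 of the 1521 genes, where this held for 15.1% of all genes tested. For 619 of the 836 genes with a higher effect all 9 K2 ratios lay above all 9 of 49CX, against 10.4% of all genes tested, and either order held for 25.5%. The genes were called on these same 12 libraries, so both counts describe the calls and do not test them. Many large values rest on groups with almost no reads. Of the genes with a lower effect 398 had under 3 counts in the 3 heated K2 libraries together, and a fitted value against such a group depends on the prior count. Among the 1059 lower-effect genes with at least 3 counts in each of the 4 groups the median difference was -2.42, and among the 729 such higher-effect genes it was 2.12.

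**Figure D1:**
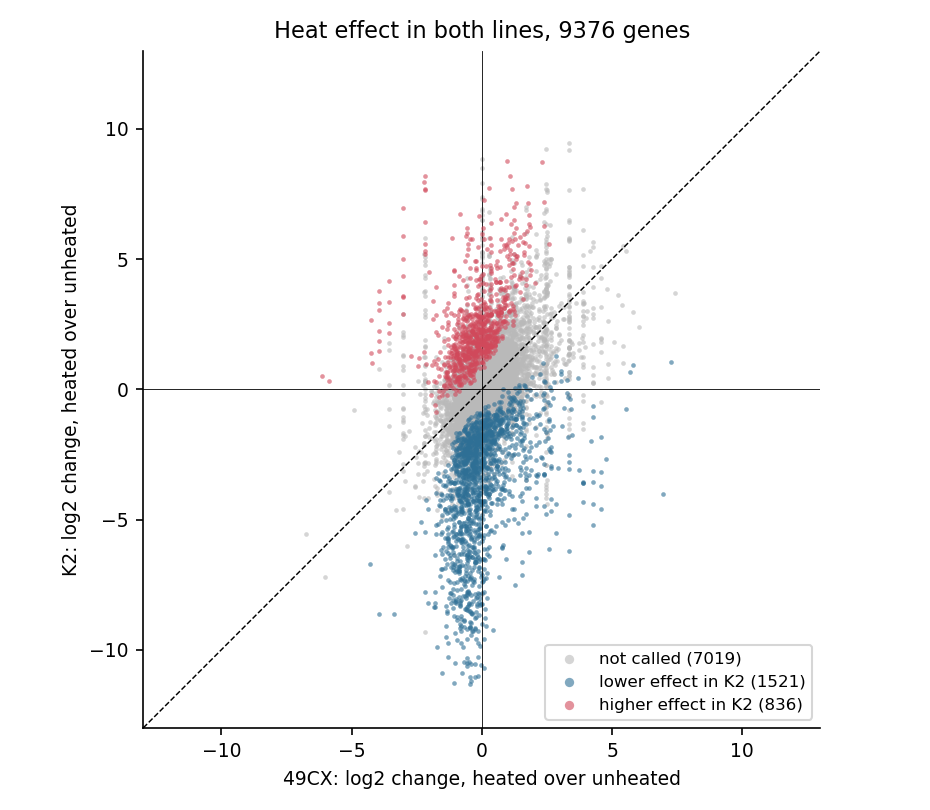
Each point is a gene, with its fitted log2 change between heated and unheated microspores in 49CX on the horizontal axis and in K2 on the vertical axis; the dashed line marks equal effects. The 1521 genes with a lower effect in K2 (blue) form a long tail downwards with values near 0 in 49CX, the 836 with a higher effect (red) lie above the line, and vertical stripes are genes with few counts in a 49CX group.

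For most of the 2357 genes heat was called in K2 and not in 49CX. The heat effect itself was called for 56.4% of all genes in K2, 27.6% raised and 28.8% lowered. In 49CX it was called for 9.32%, 3.73% raised and 5.59% lowered. Both effects share their libraries with the difference, so the following split describes it and adds no evidence. How many of all genes tested fall in each class was not computed. The classes here and in the next paragraph thus describe the called genes only. Of the 2357 genes, 1819 (77.2%) were called for heat in K2 and not in 49CX. They were 1107 lowered in K2, with a median of -3.03 there and -0.13 in 49CX, and 712 raised in K2, with medians of 2.19 and -0.16. Another 304 were called in the same direction in both lines. The largest class among these was lowered in both lines, 267 genes with a median of -5.47 in K2 and -0.998 in 49CX. Genes raised in both lines with a higher effect in K2 numbered 33, with medians of 4.83 and 1.58.

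Smaller classes went the other way. A heat change called in 49CX and not in K2 accounted for 87 genes. Of these, 59 were raised in 49CX, with a median of 2.36 there and -0.22 in K2, and 28 were lowered in 49CX, with medians of -1.29 and 0.16. Opposite directions were called for 63 genes, 49 lowered in K2 and raised in 49CX (medians -2.65 and 1.64) and 14 raised in K2 and lowered in 49CX (0.95 and -1.23). For 84 genes the difference was called with neither heat effect called.

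Heated K2 was the group that stood apart. All 3 heated K2 libraries lay below the other 9 libraries for 1095 of the 1521 genes with a lower effect (72.0%), where this held for 15.8% of all genes tested. They lay above the other 9 for 533 of the 836 genes with a higher effect (63.8%), against 18.3% of all genes. Unheated K2 was lowest for 197 of the 836 genes, 23.6% against 3.63% of all genes, and highest for 278 of the 1521, 18.3% against 7.58%. In 49CX, where 2.39% of all genes were lowest without heat and 2.13% with it, 43 of the 836 were lowest in the heated libraries. The unheated 49CX libraries were highest for 243 of the 1521 genes and the heated ones for 102, where 6.02% and 2.77% of all genes did so. The same 12 libraries called these genes, so the counts locate the difference and do not test it.

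**Figure D2:**
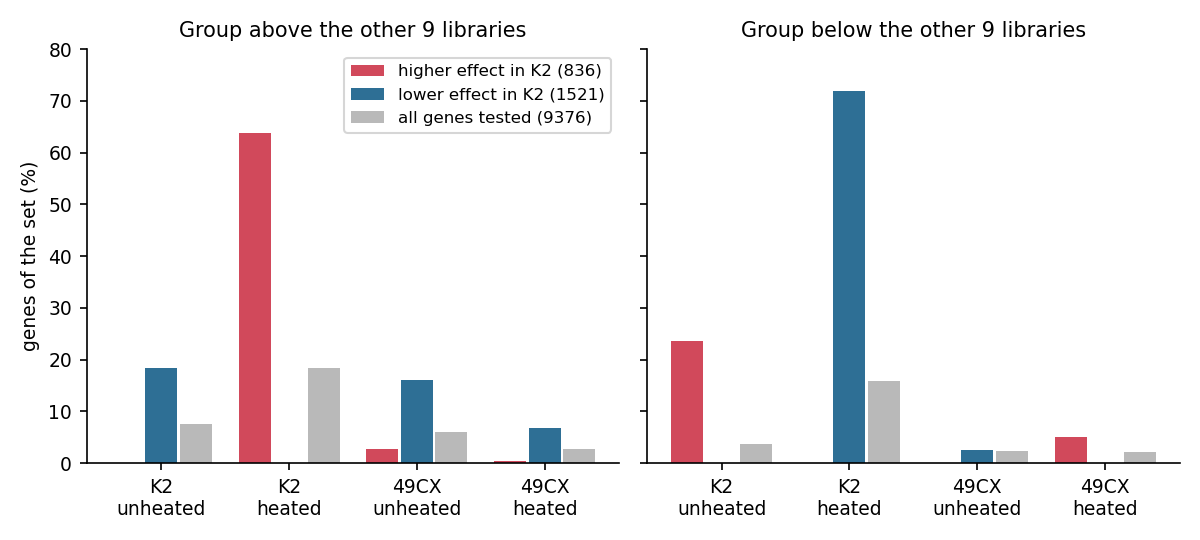
Bars give the percentage of genes for which all 3 libraries of a group lie above (left) or below (right) the other 9 libraries of the contrast, for genes with a higher effect in K2, with a lower effect in K2 and for all genes tested. Heated K2 lies below the rest for 72.0% of lower-effect genes and above the rest for 63.8% of higher-effect genes.

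Seen as a gap between lines, most called genes, like most genes tested, differed more with heat than without. The difference between K2 and 49CX was called for 32.6% of all genes without heat, 15.4% higher and 17.2% lower in K2. With heat it was called for 49.9%, 25% higher and 24.8% lower in K2. Among genes with a lower effect the median gap was 0.84 without heat and 3.08 with it (absolute log2 values), and the gap was wider with heat for 1262 of 1521, or 83.0%. Among genes with a higher effect it was 0.79 and 1.54, wider for 573 of 836, or 68.5%. Over all genes tested it was 0.74 and 1.07, wider for 62.8%, so the share among higher-effect genes was near that of all genes. The interaction is the gap with heat minus the gap without it. The genes were called on these same libraries, so the gaps describe the calls and do not test them. The classes that follow depend on the call without heat. With the replicate number as a block within each line, that call gave 1718 genes against 3057. Such a fit compares the lines at the first replicate number and not at the group means, so these counts measure unlike gaps. The share of all genes tested in each class was not computed, so the classes describe the called genes only. Among these genes a gap called only with heat was the most common pattern. It covered 669 genes that were lower in K2 with heat and not called without it, and 512 that were higher in K2 with heat and not called without it. For 464 genes K2 was lower both without and with heat, at medians of -1.50 and -6.31. A gap called without heat was not called with heat for 350 genes. They were 201 that had been higher in K2, with medians of 2.05 and -0.49, and 149 that had been lower in K2, with medians of -1.82 and 0.34. The order of the lines turned, with both gaps called, for 244 genes. Of these, 144 went from higher to lower in K2 and 100 from lower to higher.

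The share of the difference in the overall variation was smaller than that of line or heat. Of the sum of squares of log2(CPM + 4) over the 12 libraries and 9376 genes, 39.6% lay between lines, 26.1% between heated and unheated microspores, 15.4% in the difference between heat effects and 18.9% between replicates.

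Since IDs carry no names, 4 are given in full: the 2 largest differences in each direction among 1391 called genes with at least 10 CPM on average (scaled by TMM, a correction for library composition) in each of the 4 groups. BraC10g031210.1 had 5424, 6048 and 6284 CPM in the 3 unheated K2 libraries and 0, 16.4 and 14.8 in the heated ones. In 49CX it had 15217, 16331 and 13971 CPM without heat and 11367, 11708 and 11476 with heat. The heated K2 libraries did not overlap with the other 9, and the heated and unheated 49CX libraries did not overlap either. Its mean was 570-fold lower with heat in K2 and 1.32-fold lower in 49CX, and its difference was -9.04 ± 0.30 (log2, SE; adjusted p = 1.14e-90, edgeR). The 3 heated K2 libraries held 6 reads of this gene in all, so the K2 ratio is known only roughly. The SE makes the difference look more exact than these reads allow. Leaving out 1 library gave differences from -9.58 to -8.09, the latter without heated K2 replicate 1. With late microspores as baseline the difference of BraC10g031210.1 was -4.61.

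BraC02g041670.1 had 6295, 6116 and 6148 CPM in unheated and 5.16, 10.9 and 19.7 in heated K2. In 49CX it had 12740, 14543 and 12654 CPM without heat and 8322, 8745 and 7712 with heat. As for BraC10g031210.1, heated K2 alone was near 3 counts. Its difference was -8.44 ± 0.29 (log2, SE; adjusted p = 1.02e-87, edgeR), and -8.98 to -7.86 with 1 library left out. Here too the SE makes the difference look more exact than the heated K2 reads allow. Late unicellular microspores of K2 had 537 ± 64.3 CPM of BraC02g041670.1 and 52.9 ± 18.3 of BraC10g031210.1, and those of 49CX had 5698 ± 341 and 2962 ± 231 (SD, n = 3). Both IDs were thus higher in unheated than in late K2 microspores and lower in heated than in late ones, with no overlap. By library size, the single usable pollen library had 6246 CPM of BraC02g041670.1 and 12669 CPM of BraC10g031210.1. In 8-cell embryos BraC10g031210.1 had 0, 0 and 256 reads, and BraC02g041670.1 had 1, 0 and 125, all but 1 in replicate 3. Both are members of the pollen, late microspore and late 49CX-high lists described further on, which were built from other libraries.

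BraC03g012380.1 had 31.5, 7.54 and 5.04 CPM in unheated K2 and 825, 903 and 629 in heated K2. In 49CX it had 19.97, 37.4 and 55.6 CPM without heat and 45.2, 17.1 and 24.5 with heat. Each heated K2 library was far above every other library, while the 49CX groups overlapped. Its mean was 53.5-fold higher with heat in K2, and its difference was 6.22 ± 0.76 (log2, SE; adjusted p = 2.82e-13, edgeR). The unheated K2 mean rests on 6, 2 and 1 reads, and without replicate 1 of that group the difference was 7.25, the highest of 5.805 to 7.25 with 1 library left out. It was low in late microspores, with 20.3 ± 7.93 CPM in K2 and 76.5 ± 30.7 in 49CX. It was low outside microspores too, at 0 to 31.9 CPM by library size in the 9 embryo libraries, 19.3 ± 8.31 for K2 leaf and 13.1 ± 6.40 for 49CX leaf (SD, n = 3), with 0 counts in pollen, where 3 counts would be 25.4 CPM. The embryo libraries held 6021 to 170479 gene counts, and 0 counts in the shallowest say little about its level there. Among the 12 groups of the series its high level was seen in heated K2 alone.

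BraC05g007480.1 had 21.0, 45.2 and 20.1 CPM in unheated K2 and 1888, 1499 and 723 in heated K2. In 49CX it had 39.9, 22.4 and 0 CPM without heat and 18.1, 17.1 and 12.3 with heat. Its mean was 47.6-fold higher with heat in K2, and its difference was 5.61 ± 1.28 (log2, SE; adjusted p = 0.000682, edgeR). With 1 library left out it was 4.84 (without unheated 49CX replicate 1) to 6.35 (without replicate 3 of that group). Unlike BraC03g012380.1, it was already present in late K2 microspores, at 660 ± 48.1 CPM, against 48.8 ± 22.7 in late 49CX microspores. Its level was thus lower in unheated than in late K2 microspores, and higher in each heated library than in any late one. Heated replicate 3, at 723 CPM (147 reads), was only just above late replicate 3, at 716 (130 reads). BraC05g007480.1 is a member of the late K2-high list described further on. In 49CX it had 4, 3 and 0 reads without heat and 2, 2 and 1 with heat. By library size it had 3684 ± 977 CPM at the 2-cell stage of embryos, 5050 ± 4153 at the 4-cell stage and 4520 ± 2779 at the 8-cell stage. The 4-cell mean takes in 9826 CPM from 84 reads in a library of 8549 gene counts. In leaf BraC05g007480.1 had 1077 ± 215 CPM for K2 and 659 ± 104 for 49CX (SD, n = 3). With late microspores as baseline its difference was 2.64 ± 0.93 (log2, SE), against 5.61 with unheated ones.

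**Figure D3:**
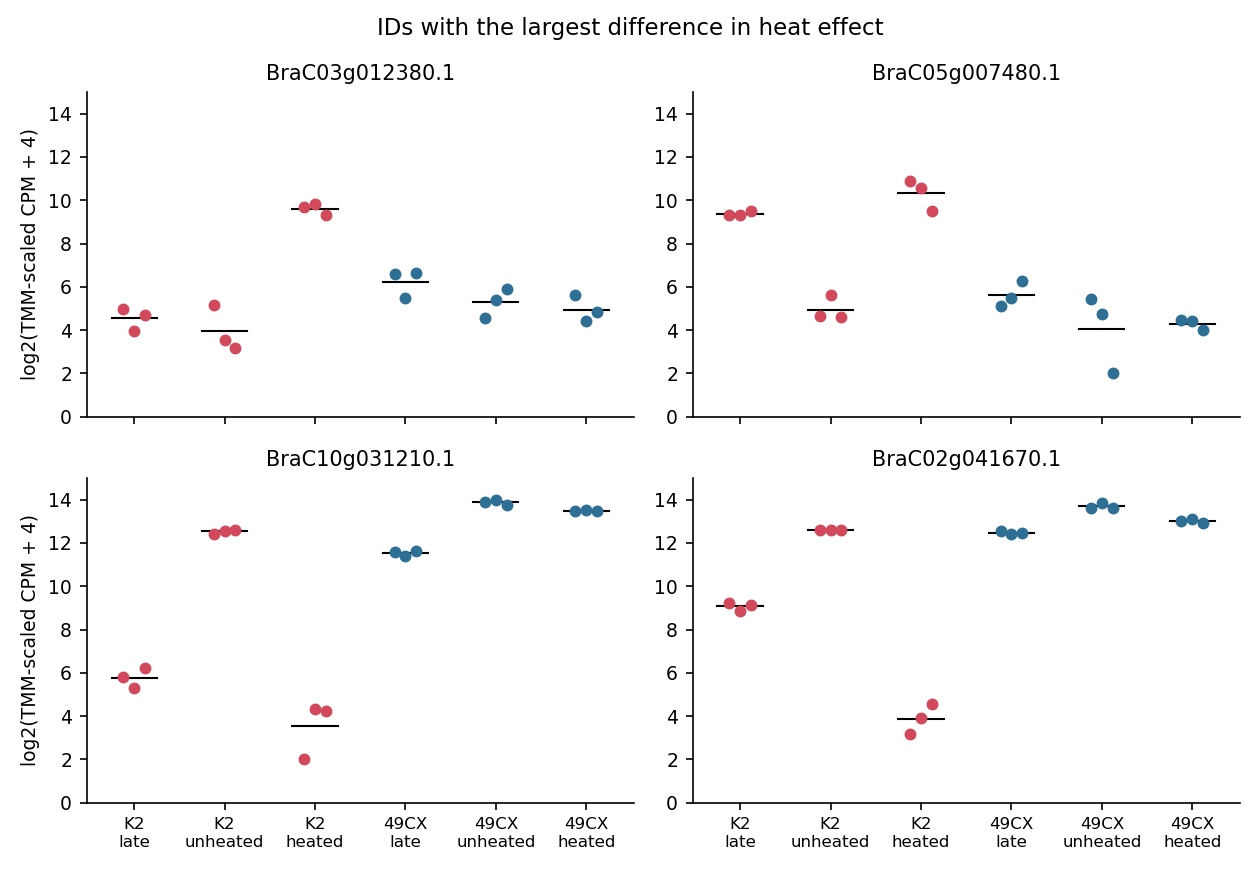
Each panel shows 1 gene ID in the 18 microspore libraries as log2(TMM-scaled CPM + 4), with K2 in red, 49CX in blue, points for libraries and lines for group means. BraC10g031210.1 and BraC02g041670.1 are at or under 19.7 CPM in heated K2 and at or above 5424 CPM in unheated K2, while BraC03g012380.1 and BraC05g007480.1 are at 629 CPM or more in heated K2 and at 55.6 CPM or less in the other 3 groups of the contrast.

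Placed beside late microspores, genes with a lower effect held more of the counts in each unheated or heated group except heated K2. They held 14.5% ± 0.510 of gene counts in late K2 microspores, 35.5% ± 0.529 without heat and 4.23% ± 0.179 after it. The 49CX values were 23.2% ± 0.657 in late, 46.7% ± 1.24 in unheated and 39.3% ± 1.003 in heated microspores (SD, n = 3). Unheated K2 libraries lay above all late K2 libraries for 1060 of the 1521 genes, 69.7% against 24.4% of all genes tested. Heated K2 libraries lay above them for 56 and below them for 798, 3.68% and 52.5%, where 23.9% and 27.8% of all genes did so. In 49CX 784 genes lay above the late libraries without heat and 675 with heat, 51.5% and 44.4%, against 22.1% and 18.9% of all genes. Below them lay 212 without heat, 13.9% against 19.2%. The unheated and heated libraries also called the genes, and the late libraries alone lie outside the contrast.

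Genes with a higher effect held less of the counts in unheated and more in heated K2 than in late K2. They held 8.73% ± 0.215 of gene counts in late, 3.92% ± 0.137 in unheated and 17.2% ± 1.09 in heated K2 (SD, n = 3). Unheated K2 libraries lay below all late ones for 422 of the 836 genes, 50.5% against 26.6% of all genes tested, and heated libraries lay above all late ones for 583, 69.7% against 23.9%. In 49CX their share was 7.46% ± 0.291 in late, 5.43% ± 0.178 in unheated and 5.52% ± 0.264 in heated microspores. There the heated libraries lay above the late ones for 117 genes and below them for 192, where 18.9% and 16.1% of all genes did so.

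Outside microspores the higher-effect and lower-effect genes held different shares of each tissue. Lower-effect genes held 58.1% of gene counts in the pollen library (57.8% to 58.4%, exact Clopper-Pearson 95% interval, counting error only), the highest value in any library. Higher-effect genes held 3.94% there (3.83% to 4.06%). In embryos the higher-effect genes held 10.3% ± 1.48 of gene counts at the 2-cell, 9.09% ± 1.30 at the 4-cell and 9.75% ± 1.79 at the 8-cell stage, beside 6.07% ± 0.557 for K2 leaf and 4.71% ± 0.748 for 49CX leaf (SD, n = 3; this difference was not tested). At least 3 counts were found in the 8-cell libraries together for 90.8% of higher-effect genes, 58.6% of lower-effect genes and 78.8% of all genes tested. For K2 leaf these percentages were 91.0, 64.9 and 87.1, and for pollen 23.7, 35.6 and 20.8. Lower-effect genes were uneven among embryos, at 4.62% to 18.1% in 8-cell and 4.98% to 16.4% in 2-cell libraries. The embryo libraries held 6021 to 170479 gene counts, so their shares are not equally exact.

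**Figure D4:**
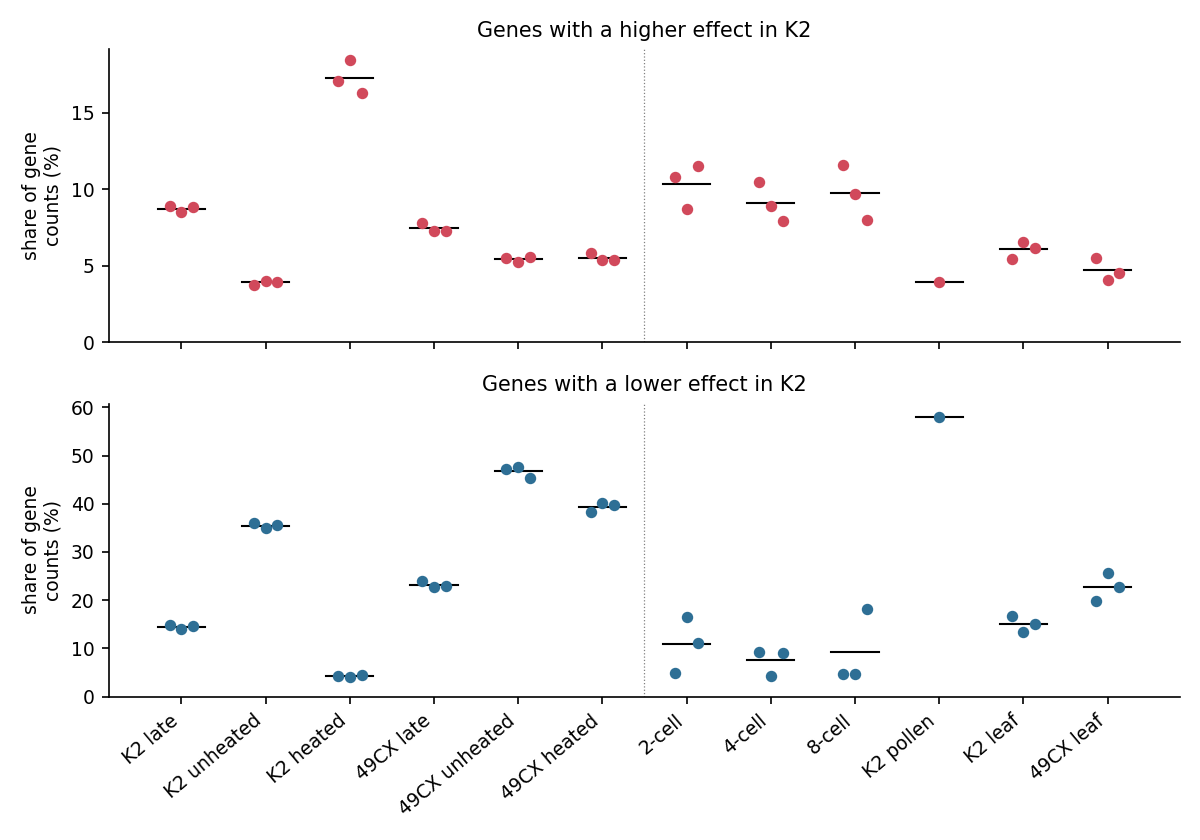
Points give the percentage of gene counts held by the 836 genes with a higher (top) and the 1521 with a lower (bottom) heat effect in K2, for each library, with lines for group means. Lower-effect genes fall to 4.23% in heated K2 from 35.5% in unheated K2 and reach 58.1% in pollen; higher-effect genes reach 17.2% in heated K2 and hold 9.09% to 10.3% on average in embryos.

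In each range of K2 effects given here, the median 49CX effect had the same sign and a smaller size. The lines share no library in this comparison. Unless stated otherwise, every range counts only genes with at least 3 counts in each of the 4 groups. The 84 genes with a K2 effect above 4 (log2) and at least 3 counts in each of the 4 groups had a median of 4.75 in K2 and 1.14 in 49CX. The 567 genes between 2 and 4 had medians of 2.54 and 0.61, and the 1172 between 1 and 2 had 1.40 and 0.35. On the side of lower levels, 217 genes below -4 had medians of -5.11 in K2 and -0.66 in 49CX, and 612 between -4 and -2 had -2.62 and -0.49. Taken from the other line, the 139 genes with a 49CX effect between 2 and 4 had a median of 2.37 in 49CX and 1.08 in K2, and the 518 between -2 and -1 had -1.22 and -0.92. The order was the other way for the 28 genes between -4 and -2, at -2.26 in 49CX and -2.85 in K2, and for the 2884 between 0 and 1, at 0.37 and 0.40. Without the minimum of 3 counts, 145 genes had a 49CX effect between -4 and -2, with medians of -2.25 there and 0.15 in K2. In the other 49CX ranges given here the sign stayed the same in both lines. Without it 592 genes had a K2 effect below -4, with medians of -5.80 there and -0.55 in 49CX. Choosing genes by a fitted value in 1 line overstates that value, so each line is given once as the chosen and once as the other.

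Gene lists that mark stages were built from libraries outside the contrast, with the gene holding at least 4-fold more in its tissue and an adjusted p under 0.05. Late microspore genes were those higher in late microspores than in leaf in both lines. Of 500 members 491 were tested. A lower effect in K2 was called for 293 (59.7% against 16.2% of all genes tested) and a higher one for 27 (5.5% against 8.92%). The median was -2.22 where all genes tested had -0.08 (-2.18 with groups under 3 counts set to 3). The list held 16.2% to 16.7% of gene counts in the unheated and 2.26% to 2.54% in the heated K2 libraries. In 49CX it held 20.6% to 21.8% without heat and 16.6% to 17.5% with heat. In both lines the groups did not overlap (exact permutation test, 2-sided, p = 0.1 each, the smallest that 3 against 3 allows), and the mean was 6.86-fold lower with heat in K2 and 1.25-fold lower in 49CX. In bulk libraries fewer cells of a type and less RNA per cell cannot be told apart. The list held 10.9% ± 0.577 in late K2 and 14.9% ± 0.799 in late 49CX microspores. It held 0.170% ± 0.0436 for K2 leaf and 0.635% ± 0.110 for 49CX leaf (SD, n = 3). These libraries defined it, so that order was fixed in advance and is no check of the labels.

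Genes that separated the lines at the late stage were split by direction. Of 485 genes at least 4-fold higher in late 49CX than in late K2 microspores, 382 were tested. A lower heat effect in K2 was called for 216 (56.5% against 16.2% of all genes tested) and a higher one for 27 (7.07% against 8.92%). The median was -2.83 (-2.48 at 3 counts). The 485 genes held 1.13% ± 0.0509 of gene counts in late K2, 15.1% ± 0.152 without heat and 1.86% ± 0.118 after it. The 49CX shares were 11.6% ± 0.287 in late, 27.8% ± 0.773 in unheated and 22.8% ± 0.330 in heated microspores (SD, n = 3). Unheated K2 thus came above the late 49CX level, and heated K2 was closer to the late K2 level. When libraries were thinned to a common depth, 246 members were tested at a median of -4.56. With 1 library left out the median was -2.63 to -2.36, a range that does not take in -2.83. The late baseline is not used for this list or the opposite one, since the late libraries defined both. The opposite list, 1335 genes at least 4-fold higher in late K2, of which 796 were tested, had 84 genes with a lower effect (10.6%, against 16.2% of all genes tested) and 53 with a higher one (6.66% against 8.92%). Its median was -0.14, which turned positive by library size alone (0.0068) and at 3 counts (0.049). It held 18.8% ± 0.0796 in late, 3.16% ± 0.291 in unheated and 5.03% ± 0.205 in heated K2, and 1.70% ± 0.0978, 0.997% ± 0.0589 and 1.54% ± 0.0449 in the same stages of 49CX (SD, n = 3). The mean was 1.59-fold higher with heat in K2 and 1.54-fold higher in 49CX.

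Pollen genes, defined by the single pollen library against K2 leaf and embryos, numbered 500, of which 369 were tested. A lower effect in K2 was called for 134 (36.3% against 16.2% of all genes tested) and a higher one for 19 (5.15% against 8.92%). The median was -1.09 (-0.97 at 3 counts, -1.79 with late microspores as baseline). The list held 8.37% to 8.54% of gene counts in unheated and 1.02% to 1.03% in heated K2, and 16.7% to 18.01% and 13.7% to 14.6% in 49CX. The fold was 8.23 lower with heat in K2 and 1.22 lower in 49CX. Of 209 embryo genes 82 were tested. A higher effect in K2 was called for 18 (22% against 8.92% of all genes tested) and a lower one for 5 (6.1% against 16.2%). The median was 1.58 (2.09 at 3 counts). The list held 0.354% to 0.392% in unheated and 1.10% to 1.56% in heated K2, and 0.308% to 0.348% and 0.406% to 0.441% in 49CX. An embryo gene expressed in heated K2 alone could pass the low-count filter through that group, while the shares use all members. With no filter 10 of all 209 had a higher effect, and thinned to a common depth 3 of 20, at a median of 0.83. Calls over all genes at these settings are given with the dependence on processing. Of 282 leaf genes tested among 500, 30 had a lower effect (10.6% against 16.2% of all genes) and 21 a higher one (7.45% against 8.92%), with a median of -0.26 that turned to 0.048 when libraries were thinned to a common depth. They held 3.08% ± 0.0597 in unheated and 2.97% ± 0.0324 in heated K2 (SD, n = 3).

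**Figure D5:**
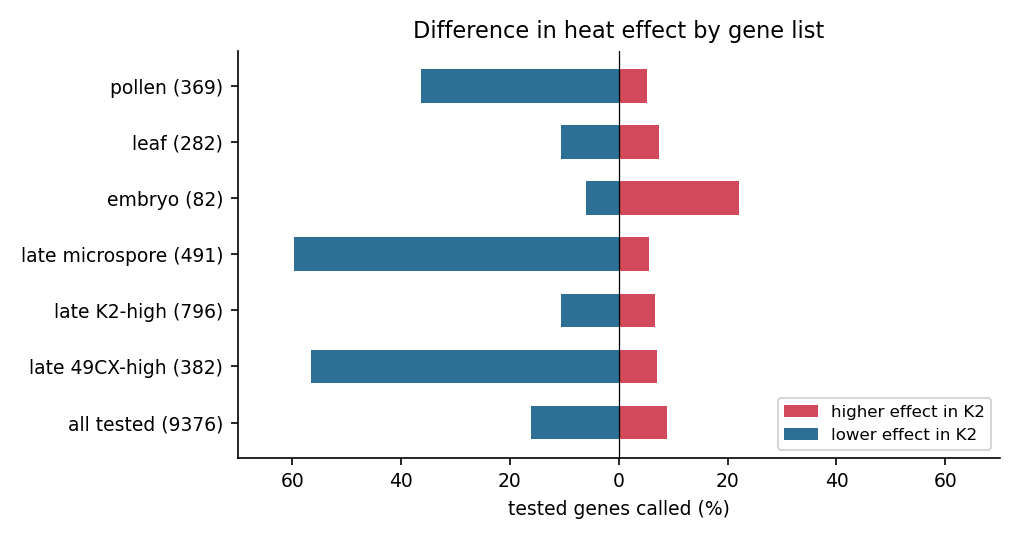
Bars give, for each gene list built outside the contrast, the percentage of its tested genes with a lower (left, blue) or higher (right, red) heat effect in K2; the number tested is in parentheses. Late microspore (59.7% lower), late 49CX-high (56.5%) and pollen genes (36.3%) extend further to the left than all genes tested (16.2%). The embryo bar covers the 82 of 209 members that passed the low-count filter, which heated K2 alone could let through.

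Genes of higher level were called more often. Among the 2344 genes with the highest mean level (median 164 CPM) 968 were called, or 41.3%, with a median SE of 0.45. Among the 2344 with the lowest level (median 31.8 CPM) 407 were called, or 17.4%, with a median SE of 1.19. The median size of the difference was 0.86 in the first and 1.61 in the second (absolute log2). At the low level the median SE was thus larger than a 2-fold difference, which is 1 on this scale.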

How the data were processed

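The authors deposited 1 table of raw counts for each library, with whole reads per gene ID and no scaling. The submitters' processing notes list Trim Galore, HISAT2, Picard and HTSeq. For versions, strand setting, genome build and annotation the entry is: not given in the sources used here. Per the labels' protocols, the libraries were strand-specific. The heat treatment's length and temperature are not in the labels, nor is the number of cells. The labels do not say whether replicates are separate plants, and p-values then cover only the spread among these libraries, which may be technical. Entries without a gene were dropped (reads in no gene were 60.1% to 80.1% of reads in the 12 libraries). K2 pollen replicates 2 and 3 held 0 gene counts and were not used.

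The 18 microspore libraries formed 1 edgeR fit (edgeR 4.0.16, R 4.3.3, robust quasi-likelihood, TMM factors, filterByExpr on 6 groups, no block), with the interaction as a contrast and Benjamini-Hochberg adjustment over 9376 genes. SE is the log2 value divided by the square root of F. It is thus derived from the test, and it can be too small where a group has few reads. DESeq2 1.42.0 was an alternative. The steps were run on simulated counts with a single fixed dispersion for all genes and changes placed only in genes above a minimum level. That run does not stand for low-count genes or for the spread of these data. Members, lists and rules were chosen with earlier results of these data known. Lists took at most 500 genes by p, except those between late lines. Named IDs followed the rule given with them. Tissue levels outside microspores are CPM by library size.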

Additional observations from a re-analysis of the deposited data

Results flagged for a closer look

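The difference between lines itself was tested for each gene, and 2357 genes passed. Among the 4 IDs given in full the heat effect differed between K2 and 49CX by 6.22 for BraC03g012380.1, 5.61 for BraC05g007480.1, -9.04 for BraC10g031210.1 and -8.44 for BraC02g041670.1 (log2, K2 minus 49CX). Groups of 3 were not searched for outlying libraries, and the values with each library left out stand beside each ID in the report.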

How the results depend on the processing

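The 2357 calls became 2355 with DESeq2's size factors, 2372 by library size alone (which moved the median of all genes from -0.08 to 0.03), 2210 with only the 12 libraries and 2032 with DESeq2's Wald test. None of these turned the direction of a called gene. Against a minimum of 2-fold there were 1411 calls, 375 higher and 1036 lower. With no filter on low counts 523 of the 45011 genes tested were called higher. With all libraries thinned to 85651 counts, 3154 genes were tested, 1371 of the 2357 among them, and 641 genes were called (139 higher, 502 lower), with 1390 for heat in K2, 41 for heat in 49CX, 617 between unheated and 1440 between heated lines. Heat in 49CX gave 510 calls with DESeq2's Wald test and 574 with no filter, against 874. Leaving out 1 library gave 2080 to 2421 calls, 638 to 869 higher and 1388 to 1584 lower, and 81.2% to 92.3% of the 2357 were kept. In 19 settings, which leave aside the late baseline and the 2-fold minimum, 571 genes were called in the same direction. The replicate block gave 2246 calls, and 1718 between unheated lines against 3057. It was set within each line, so the count between lines compares them at the first replicate number, not at the group means. Replicate numbers did not pair the libraries: same-numbered heated and unheated libraries had correlations of -0.032 to 0.0083, and other-numbered ones -0.014 to 0.035. Only 1 of 6 was closest to its own number. This measure is not the r of log2 levels given for replicates of a group. The median of the late K2-high list turned to 0.0068 by library size alone, 0.34 with 12 libraries, 0.016 when thinned, 0.049 at the floor and up to 0.025 without 1 library (-0.30 to 0.025). The leaf list turned to 0.048 when thinned, and its ratio of shares from -0.042 to 0.040 with tested members only. The causes were not tested, except that thinning and the 2-fold minimum by construction leave fewer calls.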

Other observations

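In a principal component analysis of log2(CPM + 4) over the 12 libraries the first component held 58.6% of the variance. Heated K2 libraries lay at 149 to 158 on it, unheated K2 at -20.1 to -17.3, heated 49CX at -55.1 to -47.9 and unheated 49CX at -84.6 to -76.2. On the second component, with 17.2%, unheated K2 lay at -86.2 to -78.9 and every other library between 15.5 and 47.9. Within the late microspore list the difference between heat effects held 24.0% of the sum of squares, against 15.4% over all genes tested, and replicates held 6.26% against 18.9%. Lower-effect genes also held 15.1% ± 1.64 of gene counts for K2 leaf and 22.8% ± 2.90 for 49CX leaf (SD, n = 3).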
